A study of Mus musculus with 6 samples.

Results

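The genes described here are 10 markers of epithelial and ovarian tumour cells: the keratins Krt7, Krt8, Krt10, Krt18 and Krt19, the adhesion genes Epcam and Cdh1, the mucin gene Muc1, and Msln and Wt1, which mark mesothelial and ovarian tumour cells. They were taken by gene name from the deposited per-library tables, and all 10 were found among 57462 genes. RNA had been sequenced from 6 whole tumours of HM1, a cell line of mouse ovarian cancer, sampled in a model of early tumours. Of these, 3 (shST3GAL3) carried a short hairpin RNA against the sialyltransferase gene St3gal3 and were labelled ST3GAL3 knockdown, while 3 (shControl) carried a control hairpin and were labelled wild type. All 6 thus shared the cell line and a hairpin. The sources used here do not give the host mice, their age, the number of clones behind each line or whether each tumour grew in its own mouse. The p-values therefore cover the spread between samples only, and that spread may be technical.

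Keratins form the intermediate filaments of epithelial cells, as obligate pairs of a type II keratin (such as Krt7 or Krt8) and a type I keratin (such as Krt18, Krt19 or Krt10). Krt8 and Krt18 are the pair of simple epithelia, and Krt19 is common in ducts and in carcinomas. Epcam and Cdh1 hold epithelial cells together, and both are often lowered when carcinoma cells take on a mesenchymal state. Muc1 coats the free surface of glandular cells.

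The unit is TPM, in which a gene's abundance is divided by its length and scaled to the library's total. Read numbers cannot be had from these values, so depth is unknown and the number of libraries limits the precision. St3gal3 stood at 8.44, 6.77 and 7.49 TPM in shST3GAL3 1, 2 and 3, against 14.03, 13.84 and 13.79 TPM in shControl 1, 2 and 3. It was thus lower in all 3 tumours labelled knockdown. The library of shST3GAL3 1 stood apart from the rest. Its log2 values correlated with those of the other 5 libraries at 0.926 to 0.956 across the 14207 genes tested, and the other pairs of libraries at 0.971 to 0.982. The summed level of 10 fibroblast markers there was 7023 TPM, against 1506 to 2143 TPM in the other 2 shST3GAL3 tumours and 823 to 1250 TPM in the shControl tumours. In whole tumours, fewer tumour cells and less RNA of a gene per tumour cell cannot be told apart.

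The start regions of 4 of the genes, abundant and scarce, are printed here with matches to preset short motifs marked. They are the adjacent keratin genes Krt8 and Krt18, Epcam, which was close to 0 in 5 of 6 tumours, and Muc1, the member with the most positive log2 fold change. Each is the 250 bases before the RefSeq gene start on the gene's own strand, in GRCm38.p6, while the submitters' processing notes name GRCm39 for the files. Krt8 lies at chr15:102004343-102004592 on the minus strand. On the plus strand, Krt18 lies at chr15:102027966-102028215, Epcam at chr17:87635729-87635978 and Muc1 at chr3:89228806-89229055. Capitals mark the E-box CAGGTG, the letters bound by the Snail and Zeb repressors of Cdh1, on either strand (CACCTG on the other), and TATAAA, the TATA box letters, also searched on both strands.
Krt8: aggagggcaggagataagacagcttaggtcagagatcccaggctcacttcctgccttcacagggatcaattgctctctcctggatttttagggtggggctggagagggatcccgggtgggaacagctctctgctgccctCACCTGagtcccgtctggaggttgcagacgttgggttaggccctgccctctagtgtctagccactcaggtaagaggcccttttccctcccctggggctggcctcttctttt
Krt18: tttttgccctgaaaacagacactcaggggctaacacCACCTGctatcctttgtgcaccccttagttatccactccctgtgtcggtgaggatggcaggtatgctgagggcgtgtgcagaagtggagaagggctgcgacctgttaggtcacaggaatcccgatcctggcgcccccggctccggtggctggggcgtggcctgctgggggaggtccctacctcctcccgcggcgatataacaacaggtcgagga
Epcam: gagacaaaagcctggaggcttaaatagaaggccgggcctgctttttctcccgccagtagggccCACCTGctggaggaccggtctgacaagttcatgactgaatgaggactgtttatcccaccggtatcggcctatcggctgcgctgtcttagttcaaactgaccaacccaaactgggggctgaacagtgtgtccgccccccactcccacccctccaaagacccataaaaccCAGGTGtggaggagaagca
Muc1: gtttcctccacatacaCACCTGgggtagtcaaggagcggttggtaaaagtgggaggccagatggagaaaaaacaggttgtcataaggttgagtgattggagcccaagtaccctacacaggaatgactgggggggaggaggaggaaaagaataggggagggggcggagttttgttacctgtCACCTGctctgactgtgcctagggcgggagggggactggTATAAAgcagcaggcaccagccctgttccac
These E-box letters occurred in the windows of all 6 members with a promoter entry in the RefSeq table (Krt7, Krt8, Krt18, Krt10, Epcam and Muc1). Among all 32851 windows of the same length, 17.2% held them. Epcam and Muc1 had 2 matches each and the other 4 members 1. In Epcam the matches began 187 and 19 bases before the start, in Muc1 234 and 70, in Krt8 111 and in Krt18 214. TATAAA was found for Muc1 and Krt10, and in 12.4% of all windows. The 2 motifs did not overlap. The letters were thus present both at the abundant Krt8 and Krt18 and at the scarce Epcam. Their bearing on transcript level was not tested. Krt19, Cdh1, Msln and Wt1 had no entry in the table.

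HM1 tumours held a narrow set of keratins at a very high level, while Epcam was close to 0 in all tumours but shST3GAL3 1. Other surface genes of epithelial cells were expressed in every tumour. Among them were F11r (24.37 to 31.63 TPM), Cldn6 (10.78 to 18.37 TPM) and Cd24a (9.62 to 44.33 TPM), with Cdh1 lower (2.44 to 9.46 TPM). Krt8, Krt18 and Krt19 together made up 98.4% to 99.1% of all keratin TPM in every tumour. Of the 50 keratin genes in the files, 19 were listed at 0 in all 6 libraries, 24 averaged below 1 TPM without being listed at 0 throughout, and 7 averaged at least 1 TPM. The order of the 4 most abundant members was the same in both groups, with Krt8 first, then Krt18, Krt19 and Msln. In shST3GAL3 tumours the ranges of Krt8, Krt18 and Krt19 overlapped. In shControl tumours those of Krt8 and Krt18 overlapped, and Krt19 lay below both. Msln followed after a wide gap in both groups.

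**Figure D1:**
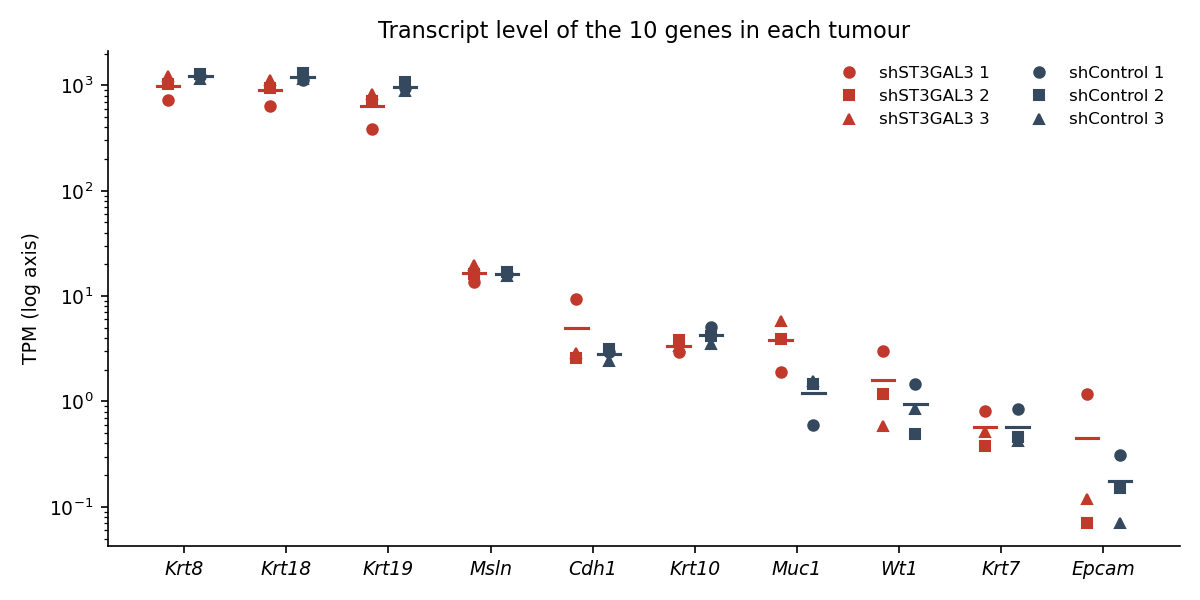
TPM of the 10 genes on a log axis, with shST3GAL3 tumours in red and shControl tumours in dark blue, a point for each tumour and a bar for the group mean (n = 3). Krt8, Krt18 and Krt19 lie between 384.42 and 1303.81 TPM in every tumour, and no other member is above 19.78 TPM.

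None of the 8 members that could be tested passed over all genes (limma on log2(TPM + 1), Benjamini-Hochberg adjusted p under 0.05). Over all 14207 genes tested, 0.00704% were called, a single gene, the processed pseudogene Gm1943, which was lower in shST3GAL3 tumours. At an unadjusted p under 0.05 the count was 1 of 8 members (Muc1), against 13% of all genes tested. By direction this was 1 of 8 members higher, against 9.19% of all genes, and 0 of 8 lower, against 3.78%. The 3 shST3GAL3 values lay wholly above the 3 shControl values for Muc1 and wholly below them for Krt19, so 2 of 8 members did not overlap, against 23.5% of all genes tested. By direction these were 1 of 8 higher, against 15.7% of all genes, and 1 of 8 lower, against 7.76%. The members' counts were thus close to those over all genes. The median log2 fold change of the 8 was -0.13, with 4 positive and 4 negative values, beside 0.013 over all genes tested. Krt7 and Epcam did not reach a TPM of 1 in 3 libraries and were left out of that test. Wt1 reached it through 1 shControl and 2 shST3GAL3 tumours, and Muc1 through all 3 shST3GAL3 and 2 shControl tumours.

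**Figure D2:**
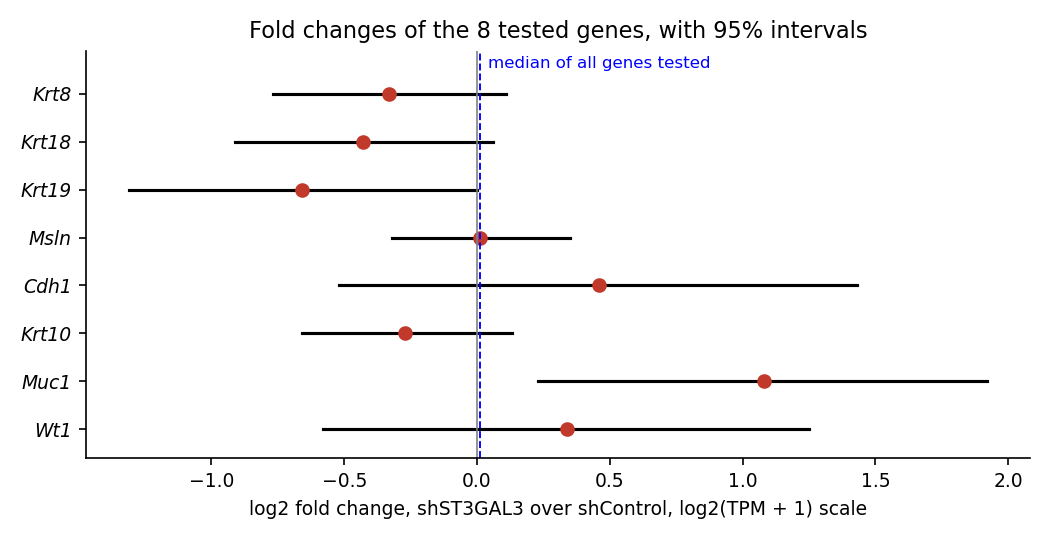
Log2 fold change of the 8 tested members, shST3GAL3 over shControl, on the log2(TPM + 1) scale, with 95% intervals from limma as bars. The interval of Muc1 runs from 0.23 to 1.92. That of Krt19 just includes 0, with an upper end that rounds to 0, and the other 6 also span 0. The dashed line is the median of all genes tested, 0.013.

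Of the type II keratins, Krt8, the partner of Krt18 in simple epithelia, was the most abundant member. It stood at 728.22, 1024.95 and 1227.06 TPM in shST3GAL3 1, 2 and 3, against 1218.93, 1295.2 and 1155.84 TPM in shControl 1, 2 and 3. The groups overlapped, because shST3GAL3 3 lay within the shControl range while shST3GAL3 1 and 2 lay below it. The means were 993 ± 251 TPM in shST3GAL3 and 1223 ± 69.8 TPM in shControl tumours (SD, n = 3 each). The log2 fold change was -0.33 (SE 0.18, 95% interval -0.77 to 0.11, limma adjusted p = 0.439). It was -0.12 without shST3GAL3 1 and -0.50 without shST3GAL3 3. Its processed pseudogene Krt8-ps is 98.6% identical to the Krt8 transcript over 941 nt in GENCODE M21 and averaged 12.2 TPM over the 6 libraries. Some Krt8 reads may thus have been assigned to the pseudogene, or the reverse. Krt8 also overlaps a noncoding gene on the other strand, Gm36026, which averaged 2.07 TPM, and the strand setting of the counting is not given.

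Krt7, a type II keratin of ducts and of many ovarian carcinomas in humans, was barely present. It stood at 0.81, 0.38 and 0.51 TPM in shST3GAL3 tumours, against 0.85, 0.46 and 0.42 TPM in shControl tumours. Both ranges were nearly the same, and without the filter on low values the log2 fold change was -0.01 (SE 0.16).

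Among the type I keratins, Krt18 followed Krt8 closely. It stood at 641.34, 941.1 and 1135.99 TPM in shST3GAL3 1, 2 and 3, against 1115.58, 1303.81 and 1149.26 TPM in shControl 1, 2 and 3. Again shST3GAL3 1 was lowest, and shST3GAL3 3 reached into the shControl range. On the log2 scale the difference was -0.43 (SE 0.20, 95% interval -0.91 to 0.06, limma adjusted p = 0.402), and -0.20 without shST3GAL3 1. Krt8 and Krt18 are neighbours on chromosome 15, the only such type I and type II pair among the members. The Krt8 to Krt18 ratio of TPM was 1.14, 1.09 and 1.08 in shST3GAL3 tumours, against 1.09, 0.99 and 1.01 in shControl tumours. These ratios overlapped between the groups (exact two-sided permutation p = 0.3).

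Krt19, which lacks the tail domain of other keratins, showed the lowest values relative to shControl of the abundant keratins. It stood at 384.42, 714.74 and 826.78 TPM in shST3GAL3 1, 2 and 3, against 939.78, 1070.25 and 884.94 TPM in shControl 1, 2 and 3. All 3 shST3GAL3 values lay below all 3 shControl values. The means were 642 ± 230 TPM in shST3GAL3 and 965 ± 95.2 TPM in shControl tumours (SD, n = 3 each), so that the shST3GAL3 mean was 66.5% of the shControl mean. This gave a log2 fold change of -0.66 (SE 0.28, 95% interval -1.31 to 0, limma unadjusted p = 0.0505, adjusted p = 0.385). Without shST3GAL3 1 it was -0.32 (adjusted p = 0.355).

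Krt19 was lower relative to Krt8 and Krt18 too, in ratios chosen after the values were seen. The Krt19 to Krt8 ratio of TPM was 0.53, 0.70 and 0.67 in shST3GAL3 tumours, against 0.77, 0.83 and 0.77 in shControl tumours. The Krt19 to Krt18 ratio was 0.60, 0.76 and 0.73 in shST3GAL3 tumours, against 0.84, 0.82 and 0.77 in shControl tumours. Neither ratio overlapped between the groups. The exact two-sided permutation p was 0.1 for each, the smallest that 3 against 3 samples allow, so the design cannot reach 0.05.

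Krt10, the type I keratin of the suprabasal epidermis, was low. It stood at 2.93, 3.81 and 3.35 TPM in shST3GAL3 tumours, against 5.1, 4.22 and 3.49 TPM in shControl tumours, with overlap through shControl 3 (log2 fold change -0.27, SE 0.17, limma adjusted p = 0.483, and -0.15 without shControl 1). The epidermal cornified envelope genes Lor, Flg and Krtdap and the desmosomal Dsg1a were listed at 0 in all 6 libraries. Krt1, the type II partner of Krt10 in skin, was listed at 0 in all libraries but shControl 3, which had 0.34 TPM.

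The other keratins with a mean of at least 1 TPM were Krt80, Krt20 and Krt27. Krt80, a widely expressed type II keratin, averaged 14.5 ± 2.82 TPM in shST3GAL3 and 15.4 ± 1.84 TPM in shControl tumours (SD, n = 3 each). Krt20, known from intestinal epithelium and urothelium, averaged 10.1 ± 3.72 TPM in shST3GAL3 and 10.6 ± 3.70 TPM in shControl tumours. For all 3, Krt27 included, the groups overlapped and the limma adjusted p was 0.692 or higher. Krt13, a keratin of stratified mucosa, lies near Krt19 on chromosome 11. It is named here as the only tested keratin outside the 10 genes whose groups did not overlap. It stood at 0.19, 0.15 and 0.53 TPM in shST3GAL3 tumours, against 1.54, 1.17 and 2.24 TPM in shControl tumours (log2 fold change -1.03, SE 0.24, limma unadjusted p = 0.00398, adjusted p = 0.38). It passed the filter on low values through the shControl tumours alone, so a difference was built into its being tested. Below the filter, with no value above 0.71 TPM, Krt76 and Krt79 were lower and Krt14 higher in shST3GAL3 tumours without overlap. Of the 45 keratins outside the 10 genes, 4 were tested, and 0 passed over all genes (limma), with 1 at an unadjusted p under 0.05.

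**Figure D3:**
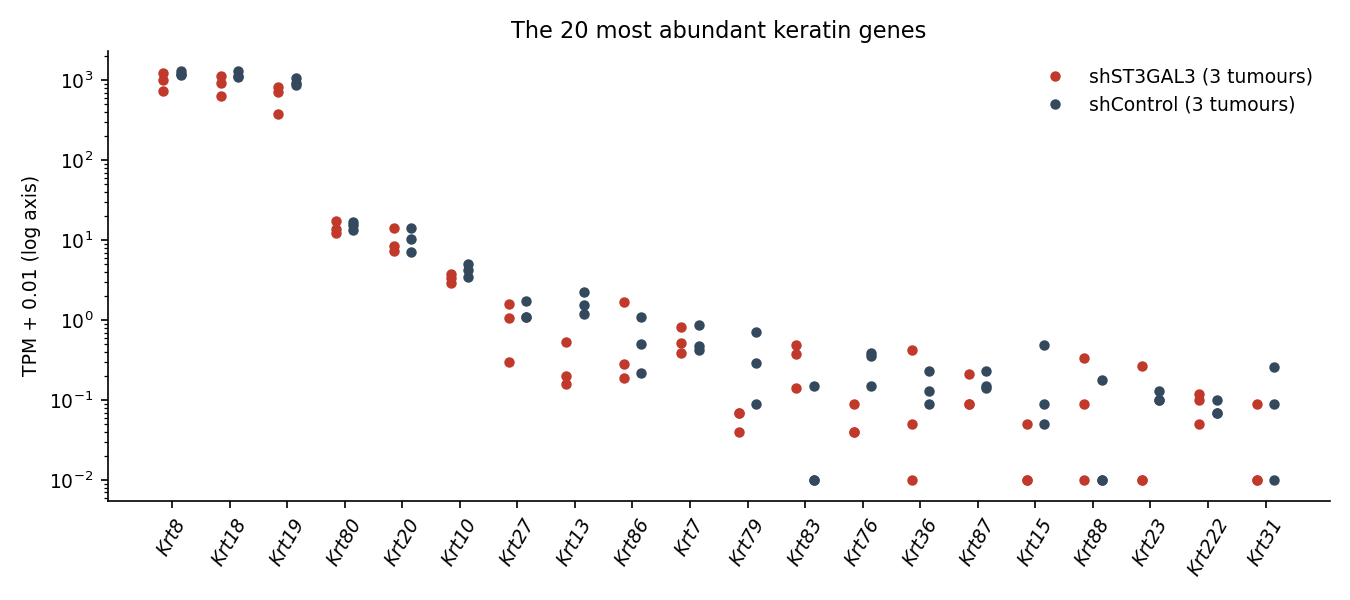
TPM + 0.01 of the 20 most abundant keratin genes on a log axis, with a point for each tumour, shST3GAL3 in red and shControl in dark blue. Krt8, Krt18 and Krt19 stand far above Krt80 and Krt20, and the remaining keratins lie near or below 5.1 TPM.

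Epcam, the epithelial cell adhesion molecule, was close to 0 in all tumours but shST3GAL3 1. It stood at 1.17, 0.07 and 0.12 TPM in shST3GAL3 1, 2 and 3, against 0.31, 0.15 and 0.07 TPM in shControl 1, 2 and 3. The groups overlapped, and the shST3GAL3 mean of 0.453 TPM rested on that library. Cdh1, which encodes E-cadherin, stood at 9.46, 2.58 and 2.89 TPM in shST3GAL3 1, 2 and 3, against 2.94, 3.14 and 2.44 TPM in shControl 1, 2 and 3. The values of 5 tumours lay together and shST3GAL3 1 stood above them. The log2 fold change of Cdh1 was 0.46 (SE 0.41, limma adjusted p = 0.608), and -0.04 without shST3GAL3 1. The levels of Epcam and Cdh1 were thus highest in the library with the lowest Krt8, Krt18 and Krt19.

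Muc1, a transmembrane mucin of glandular epithelium that carries many sialylated glycans, was higher in the shST3GAL3 tumours in value, without passing over all genes. It stood at 1.89, 3.89 and 5.75 TPM in shST3GAL3 1, 2 and 3, against 0.6, 1.48 and 1.56 TPM in shControl 1, 2 and 3. All 3 shST3GAL3 values lay above the shControl values, with shST3GAL3 1 the nearest to them. The means were 3.84 ± 1.93 TPM in shST3GAL3 and 1.21 ± 0.533 TPM in shControl tumours (SD, n = 3 each). The log2 fold change was 1.08 (SE 0.35, 95% interval 0.23 to 1.92, limma unadjusted p = 0.0196, adjusted p = 0.38), and 1.41 without shST3GAL3 1 (adjusted p = 0.304). Among the shST3GAL3 tumours the order of Muc1 was the reverse of that of the summed fibroblast markers, and shST3GAL3 3, with the fewest of these, had the most Muc1. This did not hold among the shControl tumours. There shControl 3 had the most Muc1 and also the highest fibroblast sum, 1250 TPM. Both were higher in shST3GAL3 than in shControl tumours. The chromosomal neighbours of Muc1, Thbs3 and Trim46, stood at 12.74 to 22.44 and 3.83 to 4.73 TPM in shST3GAL3 tumours, against 8.46 to 12.19 and 3.13 to 3.94 TPM in shControl tumours.

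Of 9 other mucin genes, only Muc13 reached the filter, at 1.58 ± 0.235 TPM in shST3GAL3 and 0.960 ± 0.560 TPM in shControl tumours (SD, n = 3 each), with overlap. Muc16, which encodes the ovarian cancer antigen CA125 in humans, was listed at 0 in all 6 libraries.

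Msln encodes mesothelin, a surface protein of mesothelium and of many ovarian carcinomas, which binds CA125 in humans. It stood at 13.64, 16.06 and 19.78 TPM in shST3GAL3 1, 2 and 3, against 16.39, 16.77 and 15.36 TPM in shControl 1, 2 and 3. The shControl values lay within the shST3GAL3 range. Its log2 fold change was 0.01 (SE 0.14, 95% interval -0.32 to 0.35, limma adjusted p = 0.973). It turned negative under 3 other scalings, so no direction can be given.

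Wt1, a transcription factor of mesothelium, of the gonads and of serous ovarian carcinoma, stood at 3.01, 1.18 and 0.58 TPM in shST3GAL3 1, 2 and 3, against 1.48, 0.49 and 0.85 TPM in shControl 1, 2 and 3. The groups overlapped, and shST3GAL3 1 was again the highest. Its log2 fold change was 0.34 (SE 0.38, 95% interval -0.58 to 1.25, limma adjusted p = 0.686), and -0.03 without shST3GAL3 1.

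Genes of ovarian epithelium come next, since the labels call the tumours murine ovarian cancer cells. Wfdc2, the gene of the ovarian cancer antigen HE4, was abundant, at 286 ± 64.6 TPM in shST3GAL3 and 360 ± 29.2 TPM in shControl tumours (SD, n = 3 each; log2 fold change -0.35, SE 0.16, limma adjusted p = 0.4). Its groups overlapped, and the log2 fold change was -0.19 without shST3GAL3 1. Lcn2, the gene of a secreted iron-carrier protein, stood at 10.48, 3.68 and 2.29 TPM in shST3GAL3 tumours, against 2.53, 0.68 and 1.54 TPM in shControl tumours, with overlap (log2 fold change 1.18, SE 0.50, limma unadjusted p = 0.0506, adjusted p = 0.385, and 0.67 without shST3GAL3 1). Sox17, a transcription factor of Müllerian epithelium and of endothelium, averaged 2.52 ± 1.84 TPM in shST3GAL3 and 0.977 ± 0.18 TPM in shControl tumours, with overlap (log2 fold change 0.71, limma adjusted p = 0.419). Pax8, a transcription factor of Müllerian epithelium, was listed at 0 or at most 0.02 TPM in all libraries but shST3GAL3 2, which had 1.65 TPM. The folate receptor gene Folr1 did not exceed 0.08 TPM. Slpi averaged 232 ± 170 TPM in shST3GAL3 and 145 ± 42.1 TPM in shControl tumours, with overlap and 428.05 TPM in shST3GAL3 1. Emx2 and Mecom did not reach the filter, though their shST3GAL3 values lay wholly above the shControl values. Emx2 stood at 0.54 to 4.13 TPM in shST3GAL3 and 0.3 to 0.48 TPM in shControl tumours. Mecom stood at 0.77 to 3.56 TPM in shST3GAL3 and 0.46 to 0.69 TPM in shControl tumours. Of the 11 genes in the ovarian epithelial list, 6 were tested and 0 passed over all genes (limma), with 0 higher and 1 lower at an unadjusted p under 0.05, against 9.19% and 3.78% of all genes. Of the 6, 4 had positive and 2 negative log2 fold changes, with a median of 0.36, and of -0.02 without shST3GAL3 1. The gene counted as lower was the oviductal glycoprotein gene Ovgp1, at 0.94, 0.59 and 0.95 TPM in shST3GAL3 tumours, against 1.31, 1.48 and 1.84 TPM in shControl tumours. Like Krt13, it passed the filter through the shControl tumours alone, so that a difference was built into its being tested.

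Genes of the epithelial junctions were present in part. Of 13 tight junction genes 5 were tested, of 13 desmosome and adherens junction genes 8, and of 16 genes of the wider epithelial programme 5, and in each list 0 passed over all genes (limma). At an unadjusted p under 0.05 there were 1 tight junction, 1 desmosome and 1 epithelial programme gene higher, and 1 epithelial programme gene lower. Over all genes tested the shares were 9.19% higher and 3.78% lower. The median log2 fold changes were -0.15 for the tight junction list, -0.08 for the desmosome and adherens junction list and 0.34 for the epithelial programme. Without shST3GAL3 1 they were -0.04 for the tight junction list, -0.06 for the desmosome and adherens junction list and -0.17 for the epithelial programme. The claudin gene Cldn4 was listed at 0 in all libraries. The splicing factor gene Esrp1 did not exceed 0.07 TPM, nor the desmosomal genes Dsp and Dsg2 0.20 TPM. The plakin genes Ppl and Evpl and the plakoglobin gene Jup, whose products link filaments to junctions, were expressed. Ppl averaged 36.8 ± 11.6 TPM in shST3GAL3 and 45.3 ± 0.596 TPM in shControl tumours, and Jup averaged 55.8 ± 8.18 TPM in shST3GAL3 and 65.0 ± 3.91 TPM in shControl tumours (SD, n = 3 each). Evpl averaged 10.1 ± 4.45 TPM in shST3GAL3 and 13.5 ± 0.399 TPM in shControl tumours. Each of the 3 was lowest in shST3GAL3 1, and the groups overlapped.

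The epithelial transcription factor gene Elf3 stood at 1.17, 1.41 and 1.27 TPM in shST3GAL3 tumours, against 2.48, 2.55 and 2.02 TPM in shControl tumours. Its groups did not overlap, and the low value was shared by all 3 shST3GAL3 tumours (log2 fold change -0.55, SE 0.16, limma unadjusted p = 0.0117, adjusted p = 0.38). Spint1 and Spint2 encode inhibitors of epithelial surface proteases and lay on opposite sides of the shControl values. Spint1 averaged 9.73 ± 1.08 TPM in shST3GAL3 and 7.49 ± 0.649 TPM in shControl tumours, and Spint2 averaged 52.3 ± 15.2 TPM in shST3GAL3 and 69.8 ± 3.14 TPM in shControl tumours (SD, n = 3 each). Neither pair of groups overlapped. Spint2 was lowest in shST3GAL3 1, at 34.89 TPM, and its log2 fold change of -0.45 (limma adjusted p = 0.402) was -0.19 without that library. Lsr, of tricellular junctions, averaged 2.89 ± 1.24 TPM in shST3GAL3 and 1.27 ± 0.225 TPM in shControl tumours, without overlap. The plakophilin gene Pkp3 averaged 6.13 ± 0.947 TPM in shST3GAL3 and 4.06 ± 0.909 TPM in shControl tumours, with overlap. Neither Lsr nor Pkp3 passed over all genes (limma adjusted p = 0.38 for each). Without shST3GAL3 1 the log2 fold change of Lsr was 0.49, against 0.74 with all 6 libraries.

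The mesenchymal genes Vim and Fn1 averaged 4560 and 1352 TPM over all libraries, above Krt8 at 1108 TPM. The other genes in the list of Cdh1 repressors and mesenchymal markers averaged 2.07 to 54.3 TPM. Vim, the mesenchymal intermediate filament gene, stood at 4378.5, 4507.32 and 4763.81 TPM in shST3GAL3 tumours, against 4684.54, 4708.68 and 4316.79 TPM in shControl tumours. Both groups spanned nearly the same range. Of the 9 genes in the list of Cdh1 repressors and mesenchymal markers all were tested and 0 passed over all genes (limma), with 1 higher at an unadjusted p under 0.05, against 9.19% of all genes. That gene was Snai2, a repressor of Cdh1, at 3.96 ± 2.49 TPM in shST3GAL3 and 1.54 ± 0.0866 TPM in shControl tumours, with a log2 fold change of 0.85, and of 0.47 without shST3GAL3 1. The repressor genes Snai1, at 31.0 ± 13.5 TPM in shST3GAL3 and 19.6 ± 1.16 TPM in shControl tumours, and Zeb2, at 28.7 ± 6.30 TPM in shST3GAL3 and 22.2 ± 2.35 TPM in shControl tumours, overlapped between groups. These 3 repressors were highest in shST3GAL3 1, the library with the most Cdh1, and so were Zeb1 and Twist2 of the same list. Twist1 of that list was lowest there, at 44.1 TPM, against 51.39 to 61.35 TPM in the other tumours.

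**Figure D4:**
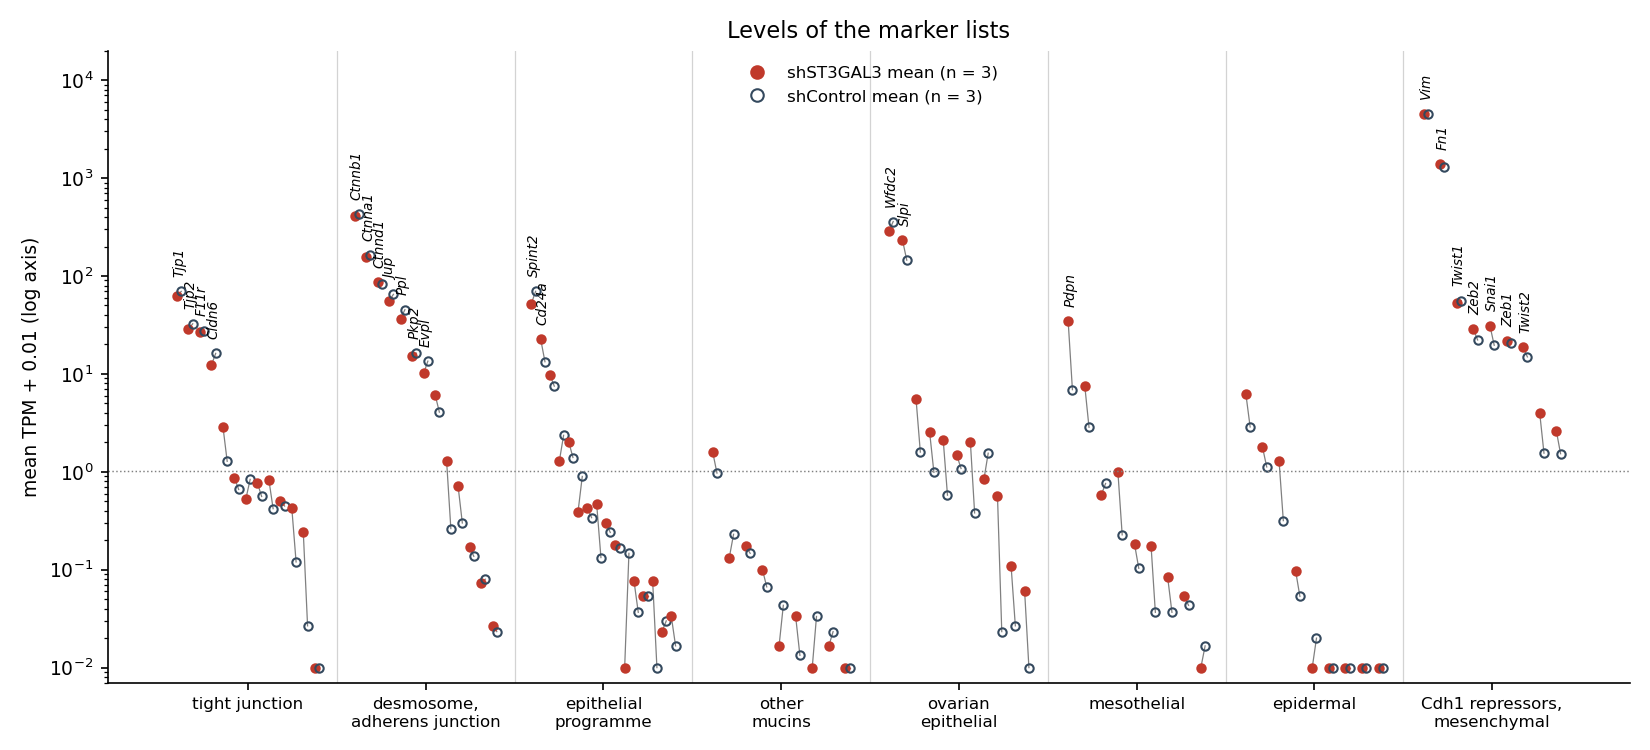
Mean TPM + 0.01 of each gene in 8 marker lists on a log axis, shST3GAL3 as filled and shControl as open circles (n = 3 each), joined per gene and ordered by level within a list. Genes averaging more than 10 TPM are named, and the dotted line marks a TPM of 1. Most genes of the epithelial programme and mucin lists lie below the line, and Vim is the highest point.

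Markers of other cell types are given next to the keratins, since these were whole tumours. In the fibroblast, endothelial and leukocyte lists 0 genes passed over all genes (limma). For the 10 fibroblast genes the median log2 fold change was 1.60, beside 0.013 over all genes tested. Each of the 10 was positive, and 9 lay without overlap above shControl, against 15.7% of all genes tested. Their summed level was 1506 to 7023 TPM in shST3GAL3 and 823 to 1250 TPM in shControl tumours, and none was at 0. The 8 endothelial genes summed to 101 to 281 TPM in shST3GAL3 and 56.1 to 79.0 TPM in shControl tumours, with none at 0 and 7 without overlap. One of the 7, the receptor gene Tek, passed the filter through the shST3GAL3 tumours alone, at 5.18, 2.07 and 1.47 TPM there, against 0.79, 0.71 and 0.91 TPM in shControl tumours. The 10 leukocyte genes summed to 354 to 664 TPM in shST3GAL3 and 274 to 316 TPM in shControl tumours, with 5 of the 9 tested without overlap. Median log2 fold changes were 1.02 for the endothelial and 0.57 for the leukocyte list. Without shST3GAL3 1, a comparison added after the data were seen, the medians were 0.86 for the fibroblast, 0.64 for the endothelial and 0.43 for the leukocyte list, beside 0.042 over all genes tested. The B cell gene Cd79a was listed at 0 in shST3GAL3 3 and shControl 1. At an unadjusted p under 0.05, 10 of 10 fibroblast, 6 of 8 endothelial (Tek included) and 4 of 9 leukocyte genes were higher, against 9.19% of all genes tested. Relative to the shControl mean, Krt8, Krt18 and Krt19 summed to 51.9%, 79.4% and 94.4% in shST3GAL3 1, 2 and 3, while the fibroblast sum stood at 691%, 211% and 148%. Their part in the keratin values was not tested.

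**Figure D5:**
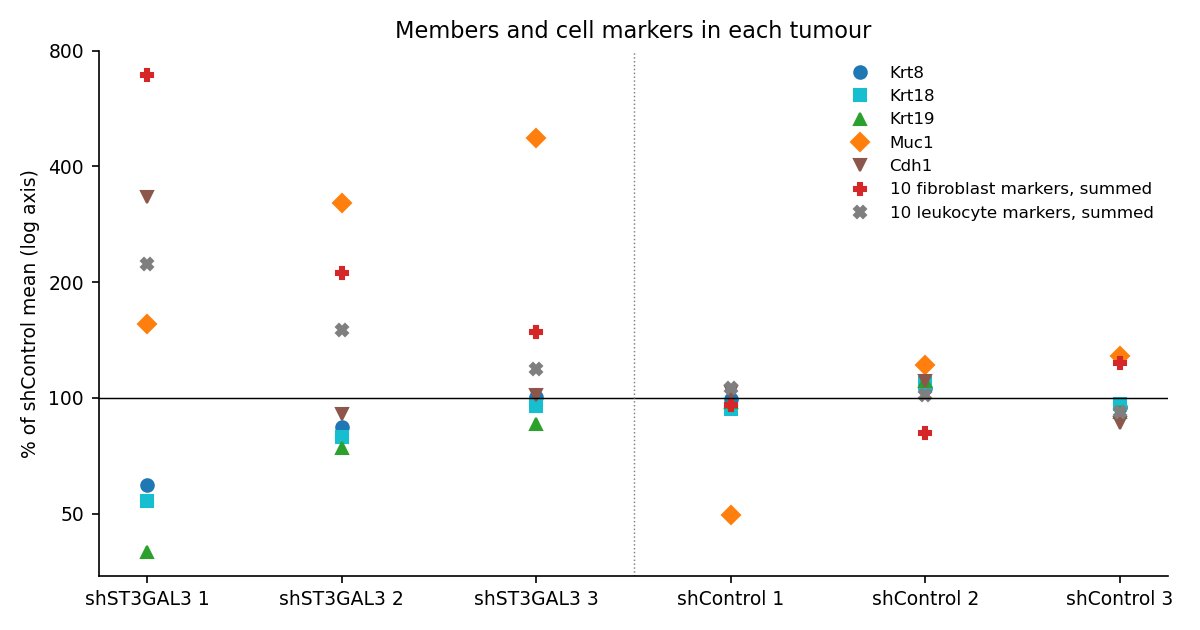
Each tumour's level as a percent of the shControl mean on a log axis, for Krt8, Krt18, Krt19, Muc1 and Cdh1 and for the summed fibroblast and leukocyte markers. In shST3GAL3 1 the 3 keratins lie at 39.8% to 59.5% and the fibroblast sum at 691%, and in shST3GAL3 3 Muc1 lies at 474% with the keratins at 85.7% to 100%.

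Mesothelial, epidermal, fat and muscle markers give the setting for Msln, Wt1 and Krt10. The mesothelial gene Upk3b did not exceed 0.02 TPM, and of 9 mesothelial genes 2 were tested, Podxl and Pdpn, which vessels and stroma also express. Podxl averaged 7.60 ± 4.09 TPM in shST3GAL3 and 2.84 ± 0.309 TPM in shControl tumours, and Pdpn averaged 34.6 ± 34.6 TPM in shST3GAL3 and 6.89 ± 2.43 TPM in shControl tumours (SD, n = 3 each), with 74.29 TPM in shST3GAL3 1. The summed mesothelial list was 18.2 to 88.5 TPM in shST3GAL3 and 7.68 to 12.6 TPM in shControl tumours. The epidermal list, with 4 of 9 genes at 0 throughout, summed to 5.49 to 15.6 TPM in shST3GAL3 and 3.79 to 5.12 TPM in shControl tumours, mostly through Sbsn. Skeletal muscle genes varied by tumour, from 4.37 to 350 TPM summed in shST3GAL3 and from 3.49 to 103 TPM in shControl tumours. Adipocyte genes summed to 13.2 to 73.3 TPM in shST3GAL3 and 6.83 to 12.5 TPM in shControl tumours.

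Among the members, Krt18 and Krt19 were most like Krt8 over the 6 libraries, with a Pearson correlation of log2(TPM + 1) of 0.989 and 0.984. Msln (0.755) and Krt10 (0.649) followed, Muc1 stood at -0.057, and Cdh1 (-0.870) and Wt1 (-0.892) ran the other way. Of all genes tested, the 5 most like Krt8 were Plppr2 and Col18a1 (0.995 each) and Ncaph2, Colca2 and Cct3 (0.993 each), with Krt18 at place 29 and Krt19 at place 53. These figures describe 6 points, of which shST3GAL3 1 lies far from the others, and all values of a library share its total.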

How the data were processed

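The deposited values are TPM per gene with 2 decimals, 1 table per tumour, judged from sums of 999999 to 1000001 in each library. Per the submitters' processing notes, fastp, HISAT, RSEM and the build GRCm39 were used, and the sources used here do not give versions, annotation, parameters or strand setting. Per the labels' protocols, total RNA came from TRIzol extraction with DNase I digestion, and libraries followed Illumina protocols. TPM is relative to the library's total, so abundant transcripts lower all others.

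Samples were grouped by title. The test was limma (version 3.58.1, R 4.3.3) on log2(TPM + 1) with group as the only term and a trended prior variance. A gene was tested if 3 or more libraries reached 1 TPM. P-values were adjusted by Benjamini-Hochberg over all 14207 genes, threshold 0.05. Fold changes on this scale understate those of low genes. The procedure was tested on simulated data.

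The members and the 13 marker lists of 129 genes were chosen with earlier results of these data known. Genes named were the members, other keratins averaging at least 1 TPM, up to 4 genes per list with the smallest p, and the 5 most like the most abundant member. The text gives a selection of these. Others named were chosen after their values were seen. Near-identical transcripts were sought in GENCODE M21 with blastn 2.17.0, at 95% identity over 100 nt or more. Chromosomes are from GENCODE M21 by gene ID and neighbours from RefSeq, both on GRCm38. Alternatives were another pseudocount, other filters and scalings, library weights, a replicate block and leaving out each library.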

Additional observations from a re-analysis of the deposited data

How the results depend on the processing

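The count of 0 members and 0 marker list genes passing over all genes held under all 14 alternatives. The count over all genes, 1, was 2 with a pseudocount of 0.1, 8 with library weights, and 1 to 3 when each library was left out, with 3 without any 1 shST3GAL3 tumour. Of 8 tested members, 2 did not overlap between groups, and 2 to 4 when each library was left out, where smaller groups overlap less. Of 112 alternative log2 fold changes of members, 105 kept their sign, and none passed. The 7 others were Msln (-0.02 with median-ratio scaling, -0.06 with quantile normalization, -0.01 without mitochondrial, ribosomal protein and immunoglobulin genes, and -0.12 to 0.13 when each library was left out), Cdh1 (-0.04 without shST3GAL3 1, and up to 0.74 without another library) and Wt1 (-0.03 without shST3GAL3 1, and up to 0.64). Among other genes, Vim was 0.05 with quantile normalization and ranged from -0.05 to 0.02 when each library was left out, Krt27 was 0.03 with library weights and ranged from -0.48 to 0.02, Krt20 from -0.32 to 0.17 and Krt80 from -0.23 to 0.02. The cause was not tested. The median log2 fold change over all genes was 0.013, and -0.046 to -0.008 under the other scalings. The share of higher genes at an unadjusted p under 0.05 was 70.8%, but 51.2% with median-ratio scaling and 47.8% with quantile normalization. St3gal3 (log2 fold change -0.80, limma adjusted p = 0.348) passed with library weights (adjusted p = 0.0337) and not under the other 13 alternatives (adjusted p 0.135 to 0.662), with log2 fold changes of -0.89 to -0.73 under all 14. Without shST3GAL3 1, tried for the lists after the data were seen, the list medians changed sign for the ovarian epithelial list (-0.02, and 0.36 with all 6 libraries) and the epithelial programme (-0.17, and 0.34). The labels share replicate numbers, but same-numbered libraries did not deviate together (correlations 0.01, -0.08 and 0.04), so they were not treated as pairs. With the replicate block, 1 gene and 0 members were called, and not every library correlated best with its own number. Another grouping showed in the count of genes with the same TPM above 0 in both libraries of a pair. Pairs among shST3GAL3 1, shST3GAL3 2 and shControl 1 shared 494 to 586 such genes. Pairs among shST3GAL3 3, shControl 2 and shControl 3 shared 475 to 615, and all other pairs 283 to 396. These sets were spread unevenly over the groups. No fit included them as a term, and their origin was not tested. Depth is unknown, so the levels of Epcam, Krt7 and other genes below 1 TPM carry no counting interval.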
